A study of Sus scrofa with 32 samples.

Results

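ADRB1 and ADRB3 encode beta-adrenergic receptors, and their RNA was followed here in the loin muscle (longissimus dorsi) of pig fetuses. They are 2 of the 30413 loci in the deposited expression table, and each was taken as the row carrying its symbol. Both genes were selected on measured values of these same fetuses, namely their level by genotype and their relation to adipocyte markers, so those values are given as a description without a test. The table gives FPKM, the fragments of a transcript per kilobase of its length, scaled to the mapped fragments of the library, for 16 pure Iberian and 16 crossbred Iberian x Large White fetuses, each with 8 females and 8 males. All fetuses were taken at day 77 of gestation from purebred Iberian sows, which had been inseminated with mixed semen of Iberian and Large White boars. Per the paper, they were picked for low or high body weight within each genotype. Parents were homozygous for the leptin receptor allele of their breed, and every sow was kept on a restricted diet during gestation, so no group stands for normally fed pregnancies. Each fetus name begins with 4 digits, which are read as its sow. This reading is not spelled out in any label, and it gives 7 sows. Fetuses of both genotypes came from 5 of them, and littermates are not independent of each other.

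Beta-adrenergic receptors bind adrenaline and noradrenaline at the cell surface and couple to the stimulatory G protein, which activates adenylyl cyclase and raises cyclic AMP. Cyclic AMP releases the catalytic subunits of protein kinase A. In fat cells the kinase phosphorylates perilipin and hormone-sensitive lipase and thereby starts the breakdown of stored triglyceride, and in skeletal muscle cyclic AMP acts on glycogen breakdown and growth. The receptor encoded by ADRB1 is best known from heart and fat, and the receptor encoded by ADRB3 is best known from the fat cells of rodents.

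ADRB1 and ADRB3 are paralogs, so their coding sequences were compared to see how far a read of 76 bases could be assigned to 1 of them. On Sscrofa11.1, the build of the table, the RefSeq annotation places the coding sequence of ADRB1 in 1 exon of 1410 bases at chr14:124400330-124401739 and that of ADRB3 in 2 exons of 1224 bases in all, between positions 48475268 and 48477172 of chromosome 15. The corresponding table loci span chr14:124400092-124402691 and chr15:48475143-48479541, and neither overlaps another annotated gene or another locus of the table. The ADRB1 stretch of 76 bases that is most similar to ADRB3 in an ungapped comparison is shown next, because it is where a read is hardest to assign. It lies on the plus strand at chr14:124400720-124400795.
ADRB1: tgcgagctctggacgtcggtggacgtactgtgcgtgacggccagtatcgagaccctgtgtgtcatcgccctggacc
Even in this stretch ADRB3 differed from ADRB1 at 12 bases, and the longest run shared by both coding sequences was 15 bases.

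The data of the whole series bear on these values in a few ways. Read totals were not analysed here, but the relative depth of the libraries, estimated from their lowest FPKM values, spanned 0.694 to 1.39 relative to the geometric mean, with medians of 0.942 in Iberian and 1.04 in crossbred fetuses. The sex labels matched DDX3Y, a Y-linked gene, in all 32 libraries, and the 13 measured genes of a muscle fibre list had mean levels of 87.4 to 11949 FPKM. Libraries of 2 kinds stood apart. In 3 Iberian females from sows 1404, 1410 and 1417 (Iberian replicates 7, 13 and 15) the mean of a 17-gene adipocyte list was 1.67 to 2.43 log2 units above its average over all fetuses, against at most 1.40 in any other fetus. The same 3 fetuses had the lowest muscle fibre list means, at -1.25 to -0.90 log2 units against -0.55 or more in the others. The 3 crossbred fetuses of sow 1340 stood apart in genes of the cyclic AMP response and in some genes outside it. As the samples are bulk tissue, fewer cells of a type and less RNA per cell cannot be told apart.

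ADRB1 was a weakly expressed gene with higher values in Iberian fetuses. In Iberian females ADRB1 ranged from 0.332 to 1.58 FPKM with a median of 0.468, and in Iberian males from 0.239 to 0.757 FPKM with a median of 0.457. In crossbred females it ranged from 0.0941 to 0.480 FPKM with a median of 0.290, and in crossbred males from 0.0910 to 0.357 FPKM with a median of 0.277. The genotypes overlapped: 8 of 16 Iberian fetuses lay above the highest crossbred fetus, 6 of 16 crossbred fetuses lay below the lowest Iberian fetus, and 1 crossbred fetus exceeded the Iberian median. Over all 16750 loci tested in this contrast 1.36% were called (adjusted p up to 0.05 from limma, fold change of 1.3 or more), which is given as background only, since the contrast took part in the selection.

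The mean ADRB1 level was 0.648 ± 0.428 FPKM in the Iberian group and 0.262 ± 0.109 FPKM in the crossbred group (SD, n = 16 each), a ratio of 2.48, while the ratio of the medians was 1.59. On the log2(FPKM + 0.5) scale used throughout, crossbred fetuses were lower by a difference of -0.53. The pseudocount of 0.5 is of the size of the values themselves, and with 0.1 the difference was -0.94. Much of the Iberian spread came from the 3 females with high adipocyte markers, which had 1.31, 1.48 and 1.58 FPKM and held 42.2% of the summed ADRB1 level of the 16 Iberian fetuses. No other fetus exceeded 0.757 FPKM. Without these 3 females the Iberian mean was 0.461 ± 0.157 FPKM (SD, n = 13), the ratio of the means was 1.76 and the log2 difference was -0.33.

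By genotype and sex, the order of the ADRB1 means was Iberian females (0.799 ± 0.553 FPKM), Iberian males (0.497 ± 0.188 FPKM), crossbred females (0.268 ± 0.134 FPKM) and crossbred males (0.256 ± 0.0852 FPKM; SD, n = 8 each). The ranges of all neighbouring groups in this order overlapped, and the order is given as a description only.

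**Figure D1:**
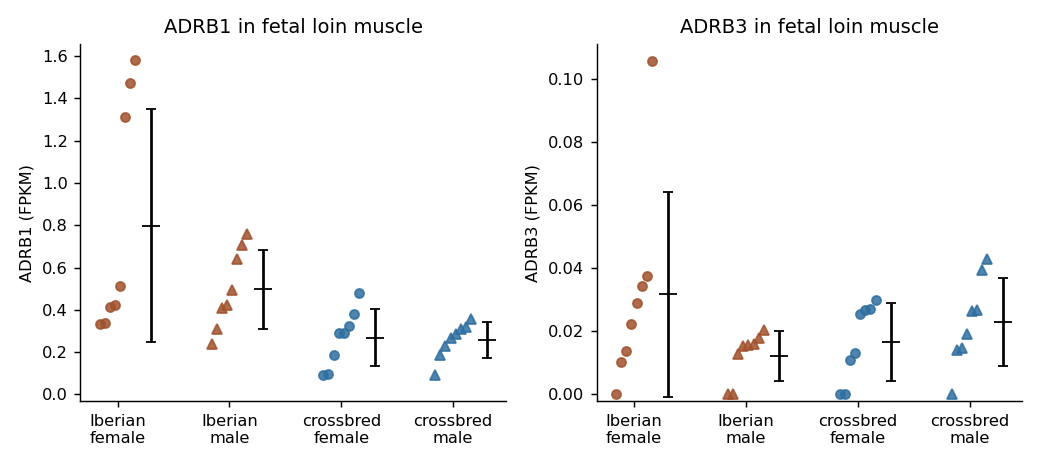
FPKM of ADRB1 (left) and ADRB3 (right) in each fetus by genotype and sex, with the mean and SD of the 8 fetuses of a group beside the points. ADRB1 reaches 1.31 to 1.58 FPKM in 3 Iberian females and stays at or below 0.757 FPKM in every other fetus, and ADRB3 exceeds 0.0428 FPKM in 1 Iberian female.

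ADRB3 was close to the detection limit in every fetus. Its values ranged from 0 to 0.106 FPKM in Iberian fetuses and from 0 to 0.0428 FPKM in crossbred ones, with 3 fetuses listed at 0 in each genotype. After rescaling for the relative depth they lay near whole multiples of 0.0145 FPKM, at 1 multiple in 13 fetuses, 2 in 9 and 3 in 3, with deviations of up to 0.225 of a multiple, as single fragments would give. The remaining fetus, Iberian replicate 15, lay at 8.85 multiples. This female was also the fetus with the highest ADRB1 level and the highest adipocyte list mean.

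Summed over fetuses, ADRB3 came to 26 multiples in Iberian and 23 in crossbred fetuses, and to 17 in Iberian fetuses without replicate 15. Read as fragments, a limit of 3 corresponds to 0.0312 to 0.0625 FPKM depending on the library, and by their whole multiples all fetuses but Iberian replicate 15 were at or below it. No fold is therefore given for ADRB3, and a genotype difference was not detectable at this depth. ADRB1 exceeded ADRB3 in 32 of 32 fetuses and was at least 4.35 times higher wherever ADRB3 was above 0.

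Within sows that carried both genotypes, the ADRB1 difference kept its sign and varied in size. The 5 crossbred-minus-Iberian differences of mean log2(FPKM + 0.5) were -0.04 in sow 1338, -0.13 in sow 1340, -0.46 in sow 1401, -1.08 in sow 1404 and -0.93 in sow 1417. In sows 1404 and 1417 every crossbred fetus was below every Iberian littermate, with 4 Iberian and 1 crossbred fetuses in the former and 2 and 5 in the latter, and in the other 3 sows the littermates overlapped. Sows 1404 and 1417 each carried one of the 3 females with high adipocyte markers. There the adipocyte list mean was lower in crossbred littermates too, by a crossbred-minus-Iberian difference of -2.12 and -1.63 log2 units. In sow 1338 the list difference was -0.67, beside an ADRB1 difference of -0.04. In sows 1340 and 1401 the list went the other way, with differences of 0.68 and 0.16. With the sow as a block, the ADRB1 difference over all fetuses was -0.58.

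**Figure D2:**
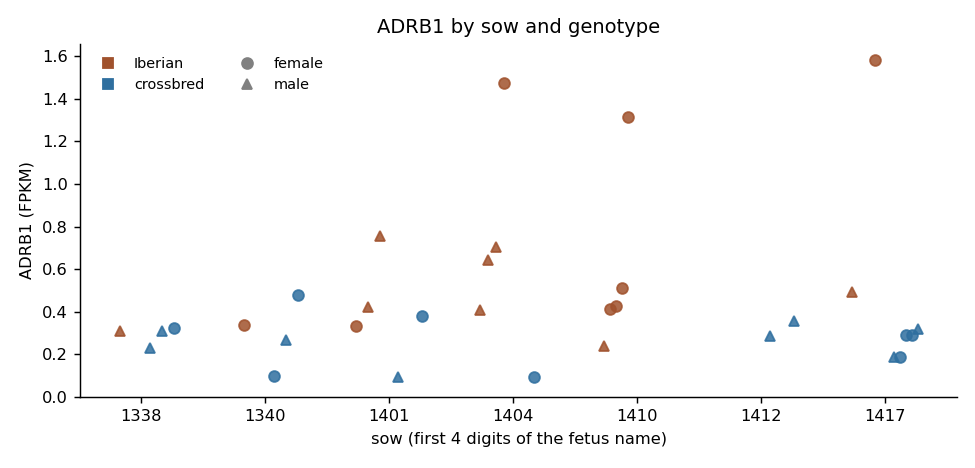
ADRB1 level in FPKM of every fetus (vertical axis) by sow (horizontal axis), with colour for genotype and symbol for sex. In sows 1404 and 1417 all crossbred fetuses lie below their Iberian littermates, and the 3 values above 1.31 FPKM come from Iberian females of 3 different sows.

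Sex was not used to choose the genes, so it was tested. ADRB1 was 0.30 log2 units higher in Iberian females than in Iberian males, which did not pass an exact two-sided permutation test over all 12870 regroupings of 8 against 8 fetuses (p = 0.206, adjusted p = 0.412 over the 4 sex tests). The limma fit without a filter on low values gave it a standard error of 0.22 log2 units. With the sow as a block the limma estimate was 0.52 ± 0.25 log2 units (SE). ADRB1 entered the blocked fit through the Iberian females alone, the only group with a mean over the required 0.5 FPKM. That is the group where it was high, so the blocked estimate is given without a test. The female excess rested on the same 3 fetuses, and without them the difference was -0.12. In crossbred fetuses the sexes differed by 0.01 log2 units (exact permutation p = 0.913, adjusted p = 0.913).

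ADRB3 gave differences of 0.05 log2 units between Iberian females and males (exact permutation p = 0.0765, adjusted p = 0.306) and -0.02 between crossbred females and males (exact permutation p = 0.347, adjusted p = 0.463). The Iberian test passed the threshold when replicate 10, a female listed at 0, was left out (exact permutation, adjusted p = 0.0479). The values are a few fragments per library, so no direction is read from them. The difference between the sex effects of crossbred and Iberian fetuses was -0.28 ± 0.25 log2 units (SE) for ADRB1 and -0.07 ± 0.04 for ADRB3 in the limma fit without a filter on low values, and neither was called (adjusted p = 0.885 for each). Of the 17345 loci that passed the filter, limma called 0, which is 0% of those tested, while 850 (4.90%) had an unadjusted p under 0.05.

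The markers of fat cells, which the selection had used, ran with ADRB1. The adipocyte list comprised 18 genes, of which 17 had a locus and AQP7 was not analysed here. ADIPOQ, which encodes the hormone adiponectin, ranged from 0.425 to 109.2 FPKM in Iberian fetuses with a median of 6.37, and from 0.315 to 25.5 FPKM in crossbred fetuses with a median of 1.75. PLIN1, the perilipin that coats lipid droplets, had medians of 3.83 FPKM in Iberian fetuses and 1.51 FPKM in crossbred ones. FABP4, a fatty acid carrier of fat cells, had medians of 41.7 and 29.6 FPKM. The medians of both genotypes were thus closer to each other than the means, which the 3 females raised.

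PPARG, the transcription factor that drives fat cell differentiation, had means of 10.6 ± 11.9 FPKM in the Iberian group and 3.41 ± 1.98 FPKM in the crossbred group (SD, n = 16 each). LEP, which encodes leptin, had means of 0.681 ± 0.597 and 0.338 ± 0.0983 FPKM. CIDEC, a protein of lipid droplets, had means of 1.04 ± 1.46 and 0.314 ± 0.177 FPKM. Not every gene of the adipocyte list was higher in the Iberian group. PLIN4, LIPE and RETN went the other way, with higher means in the crossbred group, although RETN was listed at 0 in 13 fetuses. In the 3 females ADIPOQ, PLIN1, FABP4 and PPARG each lay above all other fetuses, for example at 25.6 to 42.6 FPKM for PPARG against at most 15.1 elsewhere, whereas LEP and CIDEC overlapped with the others.

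Over the 32 fetuses ADRB1 had a Pearson r of 0.82 and a Spearman rho of 0.56 with the adipocyte list mean. Leaving out the 2 fetuses farthest from the median of the list mean gave an r of 0.68, and leaving out the 3 females gave 0.57. Within Iberian fetuses the r was 0.86 over all 16 and 0.64 over the 13 without the 3 females, and within crossbred fetuses the r was 0.37 and the rho 0.30. Whether the genotypes differ in this relation was not tested. After both measures were centred within sows the r was 0.85. The points share litters and libraries, and no p is given because the relation was part of the selection.

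The single adipocyte genes did not all behave alike. All 17 had a positive rho with ADRB1 over the 32 fetuses, from 0.13 for PLIN4 to 0.62 for CEBPA, with a median of 0.52. PLIN4 and RETN had Pearson coefficients of 0.04 and -0.02, and these genes, with CEBPA, are named here as the ends of the range after their values were seen. With the adipocyte list mean as a covariate, the genotype difference of ADRB1 was -0.27 log2 units, compared with -0.53 without it. With the covariate and without the 3 females it was -0.27. These are descriptions of 1 fitted line over fetuses of both genotypes.

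**Figure D3:**
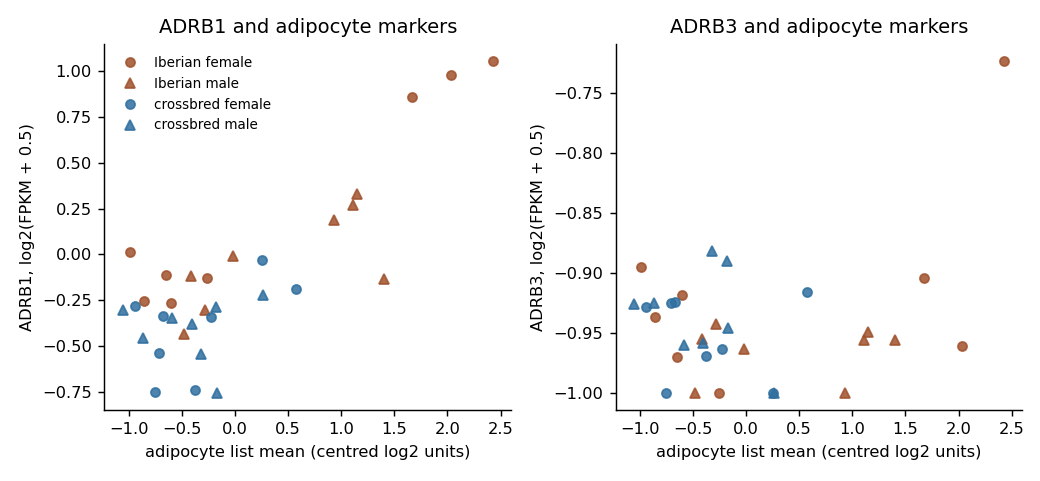
Log2(FPKM + 0.5) of ADRB1 (left) and ADRB3 (right) on the vertical axes against the adipocyte list mean, in centred log2 units, for 32 fetuses. The 3 Iberian females at list means of 1.67 to 2.43 carry the highest ADRB1 values, and ADRB3 shows 1 high fetus.

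ADRB3 showed no such relation apart from 1 library. Its r with the adipocyte list mean was 0.28 over 32 fetuses and -0.14 without Iberian replicate 15, and its rho was -0.11 over all fetuses. Of the 17 adipocyte genes, 5 had a positive rho with ADRB3.

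ADRB1 was set against 8 other lists of cell type markers in the same way. Its r with the muscle fibre list mean was -0.71 over 32 fetuses, -0.88 within Iberian and -0.17 within crossbred fetuses, and -0.36 without the 3 females. It was 0.49 with the macrophage list, 0.40 with the endothelial list and between -0.04 and 0.13 with the fibroblast (0.04), smooth muscle and pericyte, Schwann, erythroid and liver-type lists. The fibroblast value depended on Iberian replicate 15, in which the collagen genes COL1A1 and COL3A1 were listed at 0 although they averaged 2545 and 3144 FPKM over all fetuses, and it was 0.56 without that library and 0.66 over all fetuses with the 7 other genes of the list. Without the 3 females the fibroblast value was 0.36, and the macrophage and endothelial values were 0.20 and 0.12. Over the same fetuses the adipocyte list mean itself had an r of -0.57 with the muscle fibre, 0.63 with the macrophage and 0.60 with the endothelial list, so these relations are not separate from each other. The part of any cell type in the ADRB1 level was not tested.

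Genes were then ranked by the likeness of their pattern to ADRB1, as the Spearman rho over 32 fetuses among 11717 other loci with a symbol and a mean over 0.5 FPKM. The highest were MAL2, a membrane trafficking protein, with a rho of 0.79, DKK2, a secreted modulator of Wnt signalling, with 0.76, ADAMTS5, a protease that cleaves aggrecan, with 0.74, and LGALS3, the lectin galectin-3, with 0.71. HACD2, an enzyme of very long chain fatty acid synthesis, JDP2, a repressor of the AP-1 family, GIMAP6 and TMEM135 followed with 0.70, 0.69, 0.68 and 0.68. The lowest were CDH1, which encodes E-cadherin, with -0.81, ARPP21 with -0.81 and EXD1 with -0.78.

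MAL2 and DKK2 had a rho of 0.71 and 0.54 within crossbred fetuses, whereas the other 6 had 0.11 to 0.35 there. The crossbred fetuses took part in the ranking, so these values are no separate check. MAL2 had 1.06 ± 0.583 FPKM in the Iberian group and 0.618 ± 0.167 FPKM in the crossbred group, and CDH1 had 4.63 ± 2.41 and 8.02 ± 2.69 FPKM (SD, n = 16 each). No adipocyte list gene was among the 8. The closest of them was CEBPA at rank 42, PLIN1 held rank 102 and ADIPOQ rank 240. Genotype was not removed before ranking, so a gene that differs between the genotypes shares that difference with ADRB1.

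The alpha-adrenergic receptors, which bind the same hormones, give the setting for both genes. ADRA2B and ADRA2A, which couple to inhibitory G proteins, exceeded ADRB1 in 32 of 32 fetuses. ADRA2B averaged 3.87 ± 0.941 FPKM in the Iberian group and 3.64 ± 1.21 FPKM in the crossbred group, and ADRA2A averaged 2.82 ± 1.18 and 2.94 ± 1.46 FPKM (SD, n = 16 each). ADRA1A exceeded ADRB1 in 31 fetuses, ADRA1B in 30, and ADRA1D and ADRA2C in 29 each, so ADRB1 was among the least abundant of these genes and ADRB3 was below it throughout.

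In the 3 crossbred fetuses of sow 1340 ADRB1 ranged from 0.0985 to 0.480 FPKM, against 0.0910 to 0.378 FPKM in the other 13 crossbred fetuses. ADRB3 ranged from 0 to 0.0146 FPKM in the 3. ADRA1D, which couples to calcium signalling, had 0.449 to 0.653 FPKM in them and at least 1.25 FPKM in every other fetus. ADRA2A had 5.25 to 6.07 FPKM in them against at most 3.86 FPKM in the other crossbred fetuses, and 5.28 FPKM in their Iberian littermate. Iberian replicate 15, of sow 1417, lay within their range at 5.41 FPKM, so a high ADRA2A level was not particular to sow 1340.

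None of these 6 receptor genes was called by genotype, against 1.36% of all loci tested (227 loci). At an unadjusted p under 0.05, 0 were higher and 1 was lower in crossbred fetuses, against 10.7% and 7.16% of all loci tested. That gene was ADRA1B, with 0.914 ± 0.406 FPKM in the Iberian group and 0.586 ± 0.183 FPKM in the crossbred group (SD, n = 16 each; log2 fold change -0.35 ± 0.12 SE, limma adjusted p = 0.119). Like ADRB1, it was highest in the 3 females, at 1.47 to 1.79 FPKM against at most 1.29 in the other fetuses, and without them its log2 fold change was -0.21. ADRA1A, ADRA1D, ADRA2A, ADRA2B and ADRA2C had log2 fold changes of -0.18, -0.20, 0.03, -0.11 and -0.02, none of them called. Without the 4 fetuses of sow 1340 ADRA1D and ADRA2A had 0.00 and -0.13.

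**Figure D4:**
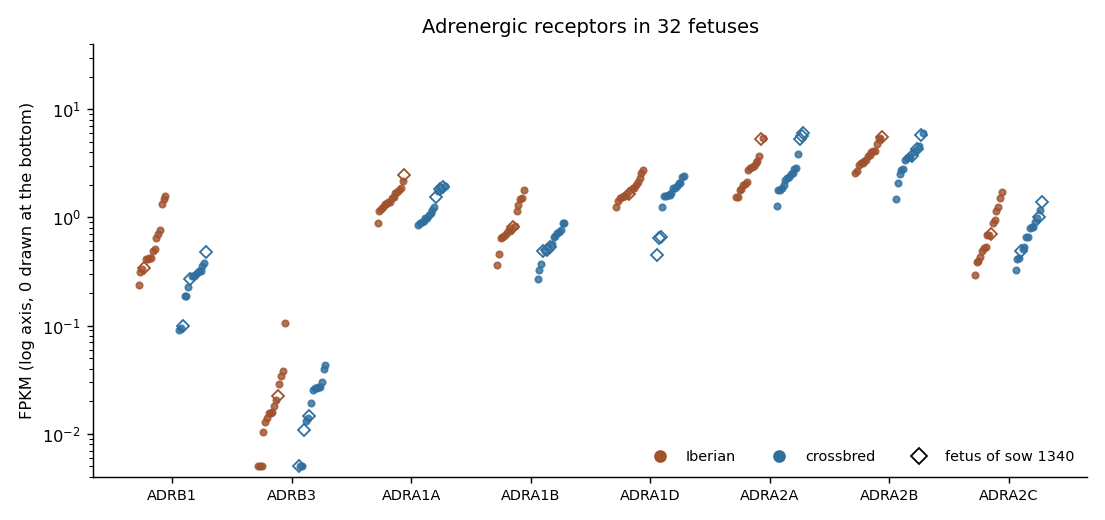
FPKM of ADRB1, ADRB3 and 6 alpha-adrenergic receptor genes in each fetus on a log axis, with values of 0 drawn at the bottom, by genotype, and with diamonds for the fetuses of sow 1340. ADRB1 lies above ADRB3 in every fetus, and the crossbred diamonds of ADRA1D lie at 0.449 to 0.653 FPKM, below all other points of that gene.

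The list of pathway genes reported here held 83 genes besides ADRB1 and ADRB3, of which 75 were tested by genotype and 1 was called, which is close to the 1.36% of all loci. At an unadjusted p under 0.05, 15 of these 75 were higher and 9 were lower in crossbred fetuses. Of all loci tested 10.7% were higher and 7.16% were lower at that cut, which is 2996 (17.9%) in either direction. These shares are the background for the unadjusted counts of each list below. The median log2 fold change was 0.03, against 0.03 over all loci tested. Among the 9 tested genes that make or remove catecholamines, 7 had positive changes, against 56.2% of all loci tested, and 5 had them without the 4 fetuses of sow 1340, where the list median fell from 0.30 to 0.18. The called gene was SLC22A3, a transporter that takes up catecholamines outside neurons. It ranged from 2.15 to 4.78 FPKM with a median of 3.13 in Iberian fetuses, and from 3.20 to 9.36 FPKM with a median of 4.64 in crossbred fetuses. All 16 crossbred fetuses lay above the Iberian median, although the ranges overlapped (log2 fold change 0.57 ± 0.12 SE, limma adjusted p = 0.0106). The call was lost with the sow as a block (log2 fold change 0.44, limma adjusted p = 0.0996) and without the 3 females (0.49, limma adjusted p = 0.0695), and remained without sow 1340 (0.47). RNLS, which encodes renalase, and MAOB, a monoamine oxidase, changed by 0.31 and 0.57 on the log2 scale without being called (limma adjusted p = 0.0831 and 0.156). MAOB averaged 13.4 FPKM in the 3 crossbred fetuses of sow 1340 and 2.99 FPKM in the other 13, and had 0.22 without that sow.

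Between receptor and kinase, none of the 7 G protein genes and none of the 7 adenylyl cyclases tested was called. GNAS, the stimulatory G protein subunit, had 623.6 ± 78.0 FPKM in the Iberian group and 654.6 ± 111.9 FPKM in the crossbred group (SD, n = 16 each) and is named outside the rule for its role. GNAI1 and GNAI2, subunits of inhibitory G proteins, had log2 fold changes of 0.16 and -0.17, and GNG12, a gamma subunit, had -0.10. ADCY2, ADCY4 and ADCY9 had 0.41, -0.26 and 0.26, and 0.28, -0.24 and 0.08 without sow 1340. At an unadjusted p under 0.05 the G proteins counted 0 genes and the cyclases 1 in each direction.

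Protein kinase A was represented by 9 tested genes, of which 0 were called. At an unadjusted p under 0.05 there were 3, against 17.9% of all loci tested. PRKAR2B, the regulatory subunit known to be abundant in fat cells, was nearest to the threshold. It ranged from 2.29 to 11.5 FPKM in Iberian fetuses and from 2.04 to 5.01 FPKM in crossbred ones, with means of 5.61 ± 2.98 and 3.03 ± 0.791 FPKM (SD, n = 16 each; log2 fold change -0.67 ± 0.18 SE, limma adjusted p = 0.0506). Like ADRB1 it was highest in the 3 females, at 9.34 to 11.5 FPKM against at most 8.45 elsewhere, and without them its log2 fold change was -0.44. AKAP1 and AKAP12, which anchor the kinase, had log2 fold changes of 0.28 and -0.16, and 0.11 and -0.11 without the 3 females.

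Of the 8 phosphodiesterases, which degrade cyclic AMP, 0 were called. At an unadjusted p under 0.05, 3 were higher and 0 were lower in crossbred fetuses, against 10.7% and 7.16% of all loci tested. PDE4B, PDE4C and PDE4D had log2 fold changes of 0.49, 0.66 and 0.50, and 0.30, 0.16 and 0.36 without the 4 fetuses of sow 1340. In the 3 crossbred fetuses of that sow PDE4C averaged 8.81 FPKM, against 0.608 FPKM in the other 13. Of 7 genes of receptor desensitisation 0 were called, with 1 in each direction at an unadjusted p under 0.05 and log2 fold changes of 0.52 for RGS2, -0.29 for ARRB1 and 0.08 for GRK3. RGS2 limits G protein signalling, ARRB1 encodes a beta-arrestin and GRK3 a kinase that marks occupied receptors. RGS2 averaged 33.0 FPKM in the 3 crossbred fetuses of sow 1340 and 12.9 FPKM in the other 13, and had 0.30 without that sow and 0.22 with the sow as a block. Of 8 lipolysis genes 0 were called. FABP4, G0S2 and PLIN1 had log2 fold changes of -0.77, -0.44 and -1.49, each with an unadjusted p under 0.05. Over all loci tested 7.16% were lower at that cut. Without the 3 females FABP4, G0S2 and PLIN1 had -0.40, -0.45 and -0.77. The median over the 8 lipolysis genes was -0.21 over all fetuses and -0.04 without the 3 females, with 3 positive changes in each. G0S2 inhibits the lipase encoded by PNPLA2. FABP4 and PLIN1 were also on the adipocyte list. The paper, which used Cuffdiff rather than limma, reports both as differentially expressed and higher in Iberian fetuses.

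The cyclic AMP response list held mediators such as CREB1 and CRTC2 as well as genes induced by cyclic AMP. Of its 14 tested genes 13 had positive changes, against 56.2% of all loci tested. Their median log2 fold change was 0.42 against 0.03 over all loci, and 0 were called. At an unadjusted p under 0.05, 4 were higher and 0 were lower in crossbred fetuses, against 10.7% and 7.16% of all loci tested. CREM and NR4A2, transcription factors induced by cyclic AMP, had 0.45 and 0.33 (limma adjusted p = 0.162 for each), and SIK1, a kinase induced by cyclic AMP, had 0.71 (limma adjusted p = 0.247). Without the 4 fetuses of sow 1340 the median over the 13 genes then tested was 0.08, and SIK1, CREM and NR4A2 had 0.12, 0.20 and 0.17. The paper, which used Cuffdiff rather than limma, reports FOS and UCP3 of this list as higher in crossbred fetuses.

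Genes of this list were high in the 3 crossbred fetuses of sow 1340, among them SIK1, CREM, PPARGC1A and NR4A3. How many of all loci set these fetuses apart was not counted, so this is not read as particular to the list. In MAOB, PDE4B, PDE4C and RGS2, which are not on the list, these 3 fetuses also lay above every other fetus. SIK1 had 12.1 to 22.4 FPKM in the 3 crossbred fetuses of that sow, 1.05 to 1.48 FPKM in the other 13 crossbred fetuses and 1.83 FPKM in the Iberian littermate. CREM had 38.7 to 51.6 FPKM in the 3 and 10.4 to 20.8 FPKM in the other crossbred fetuses. PPARGC1A, a coactivator of mitochondrial biogenesis named here after its values were seen, had 23.6 to 102.7 FPKM in the 3 and 1.49 to 2.71 FPKM in the other crossbred fetuses. NR4A3, also named after its values were seen, had 5.29 to 8.91 FPKM in the 3 and at most 0.336 FPKM in the other crossbred fetuses. The 3 fetuses thus did not overlap with the rest in SIK1, CREM, PPARGC1A or NR4A3. Their ADRB1 values lay among those of the other fetuses of both genotypes, although the highest of them exceeded all other crossbred fetuses. The cause of these values was not tested.

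**Figure D5:**
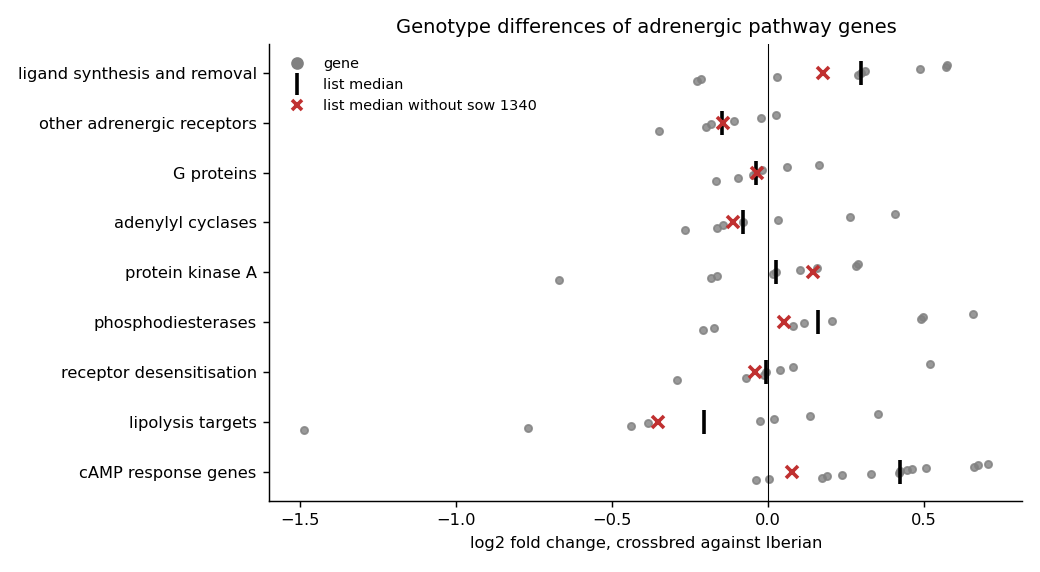
Log2 fold change between crossbred and Iberian fetuses (horizontal axis) of each tested pathway gene, by list, with the list median as a bar and the median without the 4 fetuses of sow 1340 as a cross. The median of the cyclic AMP response genes moves from 0.42 to 0.08 without that sow, and that of the lipolysis genes from -0.21 to -0.35. Without the 3 females with high adipocyte markers, which is not drawn, the lipolysis median was -0.04.

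By sex, limma called 0 of 74 pathway genes tested in Iberian fetuses, against 0.116% of 16414 loci, and 0 of 74 in crossbred fetuses, against 0.125% of 16843 loci. At an unadjusted p under 0.05 there was 1 pathway gene in Iberian fetuses, lower in females, against 2.25% of all loci tested, and there were 13 in crossbred fetuses, 4 higher and 9 lower in females, against 14.9%. The difference of the sex effects between genotypes was called for 0 of 75 pathway genes, with 5 at an unadjusted p under 0.05, against 4.90% of all loci tested.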

How the data were processed

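The authors sequenced RNA of 32 longissimus dorsi samples without strand information. Per the labels, reads were trimmed with Trim Galore, aligned to the Sscrofa11.1 genome by TopHat2 2.1.0 (Bowtie2 2.2.7.0, where the paper states a different release), and quantified by Cuffdiff and Cufflinks 2.2.1. The authors deposited FPKM values, 1 column per fetus, and every column was mapped by its label. The weight category of the fetuses is in no label and was not analysed here. The paper reports lower PLIN1, CIDEC and ADIPOQ in light than in heavy Iberian fetuses. How ADRB1 relates to weight was not tested.

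ADRB1 and ADRB3, the gene lists and the alternatives were chosen with earlier results of these data known. Values were analysed as log2(FPKM + 0.5). List means averaged log2 values centred per gene. Fits across all loci used the moderated test of limma 3.58.1 (R 4.3.3) with a mean-variance trend. They took loci that averaged more than 0.5 FPKM in any group of the comparison, with Benjamini-Hochberg adjustment over all loci tested, and a call needed an adjusted p no higher than 0.05 and a fold change of 1.3 or more (no fold for the difference of sex effects). In the genotype fit ADRB1 passed the filter only through the Iberian group and ADRB3 did not pass, so no test of either is given. The sex of ADRB1 and ADRB3 was tested by exact permutation. The paper describes RNA extraction from 32 muscle samples, and with 1 column per fetus the p-values measure the spread between these fetuses. Littermates are not independent. The fits were tested on simulated data.

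Named are ADRB1, ADRB3, the alpha-adrenergic receptor genes, called pathway genes and up to 3 per list with the smallest unadjusted genotype p, 6 adipocyte genes, and the 8 loci most and 3 least like ADRB1. The loci most like ADRB3 are not named, because it rests on a few fragments. Symbols were matched in the table and, for 4 list genes, through reference gene identifiers. AQP7, UCP1, TTN, RYR1, CLDN5 and S100B were not analysed here. Coding sequences were read from the RefSeq annotation of Sscrofa11.1, 1 further listed gene and the ADRB3 sequence are not reported here, promoter motifs were not searched, and read counts were not analysed. The remaining steps ran in Python 3.11.15 with scipy 1.17.1, numpy 2.4.6, pandas 2.3.3 and matplotlib 3.10.9.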

Additional observations from a re-analysis of the deposited data

Results flagged for a closer look

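In groups of 8 fetuses, 32 in all for 8 adrenergic receptor genes by genotype and sex, 3 had a highest or lowest fetus far from the nearest other. The cut used flags about 1 in 20 groups of independent, normally distributed values. These groups share fetuses and ADRB3 is a few fragments per library, so that rate does not hold here and the flags are a description. ADRB3 was 0.106 FPKM in Iberian replicate 15, a female, against 0.0377 FPKM in the next Iberian female. In crossbred replicate 4, a male of sow 1340, ADRA1D was lowest, at 0.650 FPKM against 1.59 FPKM in the next crossbred male, and ADRA2A was highest, at 6.07 FPKM against 2.59 FPKM. ADRB1 had no such fetus, since its high Iberian females were 3 of 8.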

How the results depend on the processing

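The genotype difference of ADRB1 kept its sign under all 10 other settings, with -0.94 at a pseudocount of 0.1 and -0.58 to -0.27 in the rest, and was -0.57 to -0.47 when each fetus was left out. The settings that combine the adipocyte covariate with another change, those that leave out the 3 females in the sex tests, and those that leave out fetuses in the counts of loci were added after seeing the data. The correlation of ADRB1 with the adipocyte list was 0.75 at a pseudocount of 0.1, 0.68 without the 2 farthest fetuses, 0.86 within Iberian, 0.37 within crossbred fetuses and 0.57 without the 3 females, and 0.76 to 0.85 leaving out each fetus. For ADRB3 it was 0.40 within Iberian, -0.20 within crossbred, 0.52 after centring within sows and -0.28 without the 3 females, and -0.14 to 0.34 leaving out each fetus.

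The sex difference of ADRB1 in Iberian fetuses was -0.12 without the 3 females and 0.18 to 0.37 leaving out each fetus. In crossbred fetuses it was -0.0020 at a pseudocount of 0.1 and -0.042 to 0.062 leaving out each fetus, with the sign turned in 5 of 16. For ADRB3 it was 0.024 to 0.064 in Iberian fetuses and -0.027 to -0.0096 in crossbred fetuses leaving out each fetus. Loci called by genotype fell from 227 to 48 with the sow as a block, 126 without the 4 fetuses of sow 1340 and 53 without the 3 females, and pathway genes called from 1 to 0 with the block and without the 3 females. Loci called by sex in crossbred fetuses rose from 21 to 33 with the sow as a block. No paired analysis was possible by replicate number because those numbers follow accession order, and littermates were matched by the sow as a block instead.

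ADRB1 lies near the pseudocount and ADRB3 near single fragments, so depth limits both.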
